A study of Homo sapiens with 6 samples.

Results

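The genes described here are 10 messages of 4 families of RNA-binding proteins, chosen by name: the ELAVL family (*ELAVL1*, *ELAVL2*, *ELAVL3* and *ELAVL4*), the CELF family (*CELF1* and *CELF2*), the Musashi family (*MSI1* and *MSI2*) and the LIN28 family (*LIN28A* and *LIN28B*). They are 10 of the 60655 genes in the count table, and 8 of them were among the 14507 genes with enough reads to be tested. RNA immunoprecipitation followed by sequencing was used to ask which RNAs are recovered with IGF2BP3, itself an RNA-binding protein, in WaGa cells, a Merkel cell carcinoma line that carries the Merkel cell polyomavirus. An antibody to IGF2BP3 was compared with a non-specific IgG antibody, with 5 µg of antibody and 3 libraries in each group, labelled replicates 1 to 3. Cells of both groups were wild type and untreated, all came from this 1 line, and the IgG libraries are the only control analysed here, with no input RNA.

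All 4 families bind short single-stranded motifs in messages. ELAVL1, also called HuR, is made in nearly all tissues and protects messages with AU-rich elements from decay, while ELAVL2, ELAVL3 and ELAVL4 are its neuronal relatives. CELF proteins bind GU-rich elements and act in splicing and in message decay. Musashi proteins bind UAG-containing motifs in 3′ UTRs and are known from neural and haematopoietic progenitors. LIN28A and LIN28B block maturation of the let-7 microRNAs, and let-7 in turn represses *LIN28B*, so that family forms a double-negative loop.

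Library totals ran from 9758759 to 14886414 counts, and the 10 genes together took 0.167 to 0.199% of the counts of a library. Within both groups replicate 1 stood apart from replicates 2 and 3: chi-square over degrees of freedom, comparing counts of library pairs, was 18.2 to 22.0 for pairs with replicate 1 and 2.19 to 3.25 for replicates 2 and 3. All 10 Merkel cell carcinoma markers on a list were expressed, with a summed level of 2161 to 3279 TPM (a level scaled for transcript length) in the IgG libraries and 2551 to 3391 TPM in the IGF2BP3 libraries. The immune markers *PTPRC* and *CD3E* and the fibroblast marker *COL3A1* were at 0 in every library. The fibroblast list summed to 35.8 to 54.1 TPM with IgG and 29.2 to 47.3 TPM with IGF2BP3, nearly all from *DCN*, and the immune, melanocyte and endothelial lists to at most 1.23 TPM.

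On the TPM scale, which allows levels of different genes to be compared, *ELAVL2*, *ELAVL3* and *ELAVL1* were the most abundant of the 10 messages in these immunoprecipitates. With no input RNA, levels in the cells were not measured. In the IgG libraries *ELAVL2* was at 178 ± 15.8 TPM (SD, n = 3), *ELAVL3* at 139 ± 38.2 TPM and *ELAVL1* at 102 ± 18.4 TPM. *CELF1* followed at 59.8 ± 23.2 TPM, *ELAVL4* at 55.1 ± 12.9 TPM and *MSI2* at 50.4 ± 13.5 TPM. *LIN28B* was at 21.8 ± 5.41 TPM and *CELF2* at 16.55 ± 4.95 TPM. Among neighbours in this order, the libraries did not overlap between *ELAVL1* and *CELF1*, between *MSI2* and *LIN28B* and between *CELF2* and *MSI1*. The ranges of the other neighbours overlapped. Within a library, however, *ELAVL2* was above *ELAVL3*, *ELAVL3* above *ELAVL1*, *ELAVL4* above *MSI2* and *LIN28B* above *CELF2* in all 3 IgG libraries, and *CELF1* above *ELAVL4* in 2 of 3. In the IGF2BP3 libraries *ELAVL2* stood at 183 ± 6.69 TPM, clear of *ELAVL3* at 144 ± 25.8 TPM in every library. For all 8 of these genes replicate 1 had the lowest TPM of its group, with IgG and with IGF2BP3 alike.

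**Figure D1:**
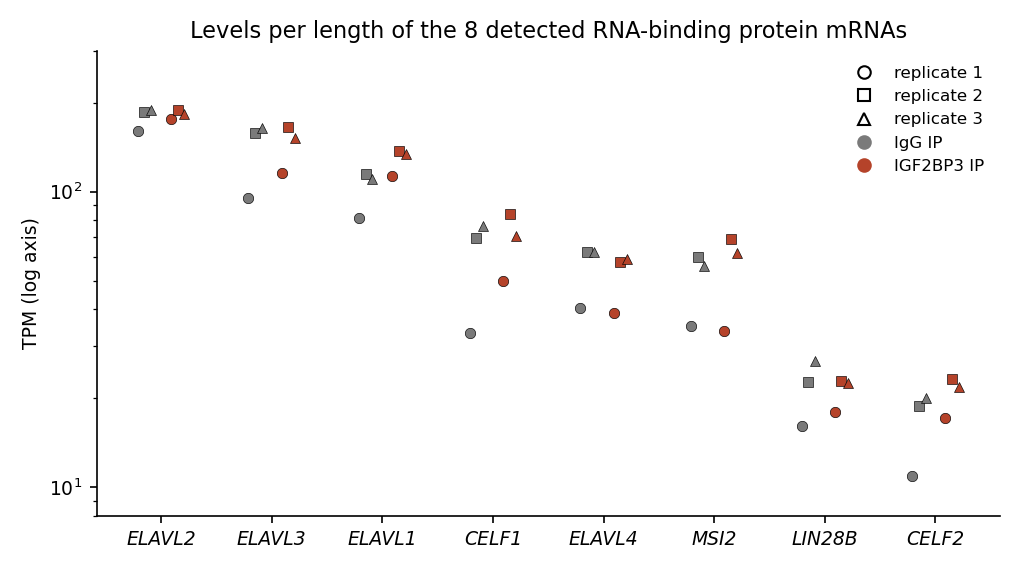
TPM of the 8 tested genes on a log axis, 1 point per library, for the IgG (grey) and the IGF2BP3 (red) immunoprecipitates, with the marker shape giving the replicate number. *ELAVL2*, *ELAVL3* and *ELAVL1* were the highest in both groups, and replicate 1 lay lowest in its group for all 8 genes.

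None of the 8 tested genes was enriched with IGF2BP3 and none was lower, in edgeR, DESeq2 or limma-voom. Enriched means at least 1.5-fold higher counts in the IGF2BP3 libraries at an adjusted p under 0.05 in edgeR's quasi-likelihood test, with p-values adjusted over all tested genes, and 1.16% of all tested genes met it. Lower means the same in the other direction, met by 0% of all tested genes. Without the fold threshold none of the 8 passed either, against 1.4% of all tested genes higher and 0% lower. At an unadjusted p under 0.05 and any size, 1 of the 8 was higher, *ELAVL1*, against 9.72% of all tested genes, and 1 was lower, *ELAVL4*, against 3.1%. Every IGF2BP3 library lay above every IgG library for 2 genes, *ELAVL1* and *CELF2*, an order seen in 12% of all tested genes. The reverse order held for 3 genes, *ELAVL2*, *ELAVL4* and *LIN28B*, and for 8.69% of all tested genes. On the TPM scale the groups overlapped for all 8, but the share of all tested genes with such an overlap was not counted. The median log2 fold change of the 8 genes was -0.03, and that of all tested genes was -0.01. A fold change here is a change in recovery relative to the other RNAs of the library, and in bulk lysates a message carried by more cells and one with more copies per cell cannot be told apart. An exact permutation test of 3 against 3 libraries cannot give a two-sided p under 0.10.

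The 95% interval of the log2 fold change lay inside a 1.5-fold change in either direction for 7 of the 8 genes, *ELAVL3* being the exception. Deviations of same-numbered libraries from their group means correlated at 0.54, 0.26 and 0.22 for numbers 1 to 3. Replicates 2 and 3 correlated as much crosswise (0.25 and 0.26), so only number 1 stood out as a pair. The difference between same-numbered libraries was above 0 in all 3 pairs for *ELAVL1*, *ELAVL3* and *CELF2*, which 25.1% of all tested genes also were, and below 0 in all 3 for *ELAVL2*, *ELAVL4* and *LIN28B*, against 23.5%. When edgeR was given the replicate number as a blocking term, the adjusted p at any size fell under 0.05 for 5 of the 8 genes, with *ELAVL1*, *ELAVL3* and *CELF2* higher and *ELAVL2* and *ELAVL4* lower. Among all tested genes 10.9% were higher and 5.23% lower by that measure. None of the 8 reached 1.5-fold in either direction with the block, where 3.56% of all tested genes were enriched and 0.103% lower. DESeq2 with the same block left *ELAVL1* higher (against 6.52% of its tested genes) and *ELAVL2* and *ELAVL4* lower (against 2.87%). When a correction for transcript length was added to the block in edgeR, *ELAVL1* and *ELAVL3* were higher (against 8.89%) and *ELAVL2*, *ELAVL4*, *MSI2* and *LIN28B* lower (against 14.2%). *ELAVL1*, *ELAVL2* and *ELAVL4* had an adjusted p under 0.05 in each of these 3 blocked fits, and of these 3 genes *ELAVL1* alone also did in the blocked fit with a GC correction.

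**Figure D2:**
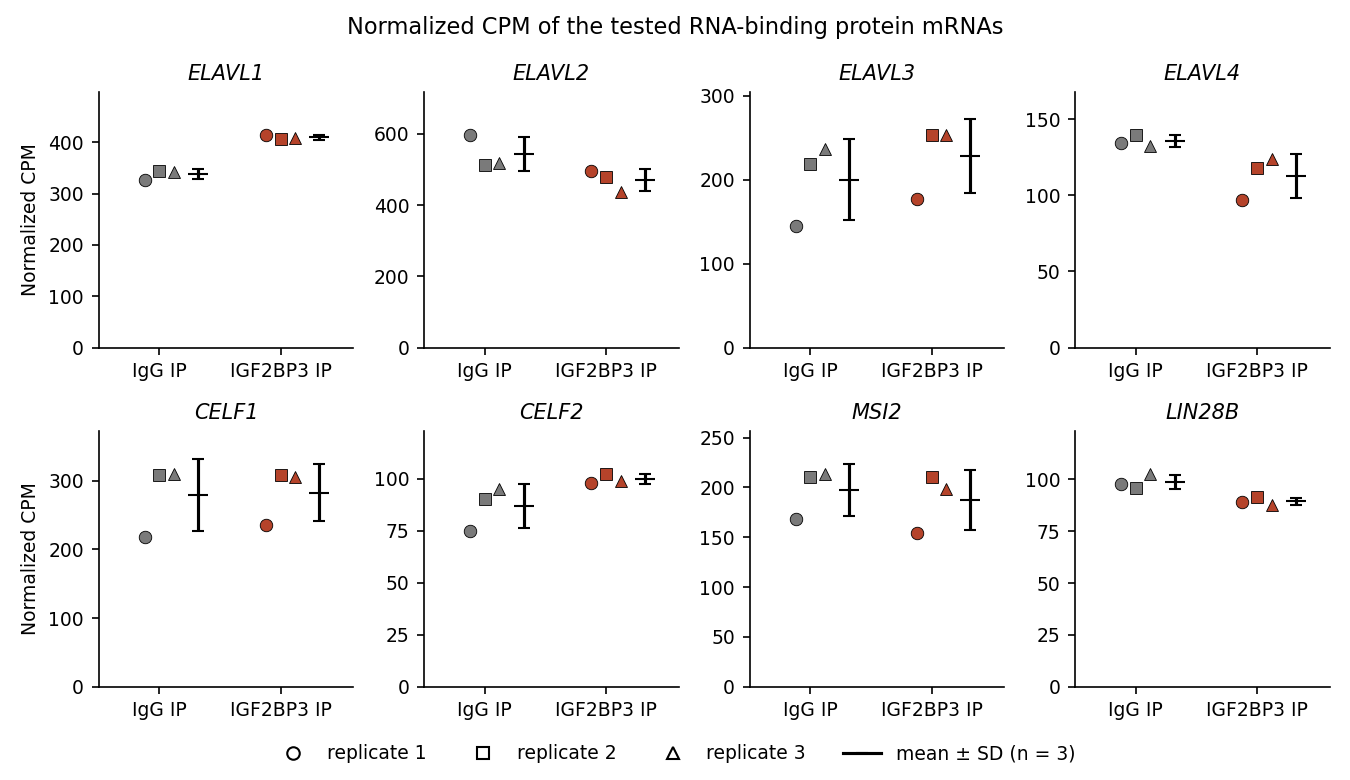
Normalized CPM (counts scaled to the size of the library) of the 8 tested genes in each library, with the group mean and SD as error bars (n = 3 per group). The groups do not overlap for *ELAVL1* and *CELF2*, which lay higher with IGF2BP3, or for *ELAVL2*, *ELAVL4* and *LIN28B*, which lay lower.

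*ELAVL1* (ENSG00000066044.15, chr19:7958573-8005659 on the minus strand of GRCh38, 6 exons) had the smallest p-value of the family. Its level was 327, 345 and 342 CPM in IgG replicates 1 to 3 and 415, 407 and 408 CPM in IGF2BP3 replicates 1 to 3. The lowest IGF2BP3 library was well above the highest IgG library, and the spread within each group was small, with means of 338 ± 9.77 and 409.8 ± 4.50 CPM (SD, n = 3). The log2 fold change was 0.28 (SE 0.07), or 1.21-fold, with an unadjusted p of 0.0036 and an adjusted p of 0.113 in edgeR. The block brought the adjusted p to 0.00064. In TPM the groups just overlapped, with 81.2, 115 and 111 TPM against 113, 138 and 134 TPM. The change was 0.34, 0.24 and 0.25 on the log2 scale in the same-numbered pairs 1, 2 and 3. It was also the only one of the 8 with an adjusted p under 0.05 when both replicate 1 libraries were left out, with a log2 fold change of 0.25 and an adjusted p of 0.0028 in edgeR, where 7.85% of all tested genes were higher and 1.66% lower.

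*ELAVL2* (ENSG00000107105.15, chr9:23690104-23826337, minus strand, 7 exons) encodes a neuronal ELAVL protein. The IgG libraries held 598, 513 and 519.6 CPM and the IGF2BP3 libraries 497, 479.6 and 437 CPM. All IGF2BP3 libraries were below all IgG libraries, and the means were 544 ± 47.4 and 471 ± 30.4 CPM (SD, n = 3). On the log2 scale the change was -0.21 (SE 0.09), with an adjusted p of 0.392 in edgeR and 0.011 with the replicate block. The TPM values of *ELAVL2* overlapped between the groups.

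*ELAVL4* (ENSG00000162374.18, chr1:50024029-50203772, plus strand, 7 exons) encodes HuD, the neuronal ELAVL protein tied to neurite growth. It had 134, 139.9 and 133 CPM in the IgG libraries and 96.7, 118 and 124 CPM in the IGF2BP3 libraries. IGF2BP3 replicate 1 was the lowest of the 6, and its pair had the largest difference, -0.47 on the log2 scale, against -0.24 in pair 2 and -0.09 in pair 3. The log2 fold change was -0.26 (SE 0.10), with an unadjusted p of 0.030 and an adjusted p of 0.317 in edgeR, and an adjusted p of 0.0073 with the block. With both replicate 1 libraries left out it was -0.17 (adjusted p = 0.105).

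*ELAVL3* (ENSG00000196361.10, chr19:11451326-11481046, minus strand, 7 exons), which encodes HuC, a marker of differentiated neurons, varied most within the groups relative to its mean. It had 145, 219 and 236 CPM with IgG and 177, 254 and 254 CPM with IGF2BP3. Replicate 1 was low in both groups, at 0.639 of the mean of replicates 2 and 3 with IgG and 0.699 with IGF2BP3, and the groups overlapped. Its log2 fold change was 0.19 (SE 0.19, 95% interval -0.25 to 0.62), with an adjusted p of 0.737 in edgeR. It was 0.0072 without IgG replicate 1 and 0.34 without IGF2BP3 replicate 1. The differences within pairs were 0.29, 0.21 and 0.10, and the block brought the adjusted p to 0.019. *ELAVL3* also differed from the other genes in how its counts related to its length: the length implied by its counts and FPKM values was 1752 bases, or 36.9% of its 4742-base transcript, where the other tested members had 61.4 to 91.8% and the median tested gene 78.7%. Its annotated span shares 14807 bases on the same strand with the protein-coding gene ENSG00000267477, which had 0 counts in every library, and the part of this overlap in the *ELAVL3* counts was not tested.

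Since ratios between messages of the same library do not depend on the scaling of the library, the ELAVL messages were also set against each other. The *ELAVL1* to *ELAVL2* ratio of counts was 0.546, 0.672 and 0.659 in IgG replicates 1 to 3 and 0.836, 0.848 and 0.932 in IGF2BP3 replicates 1 to 3. The mean log2 ratio was 0.48 higher with IGF2BP3, a 1.40-fold difference with no overlap. The *ELAVL1* to *ELAVL4* ratio was 2.43, 2.47 and 2.58 with IgG and 4.29, 3.45 and 3.28 with IGF2BP3, which was 1.46-fold higher, again with no overlap. In counts, the lack of overlap of both ratios follows from the single genes and adds no further support. Every IGF2BP3 library lay above every IgG library for *ELAVL1* and below for *ELAVL2* and *ELAVL4*. Both ratios also separated the groups on the TPM scale, by 0.30 and 0.42 in log2. The *ELAVL3* to *ELAVL4* ratio separated them in counts (1.08, 1.56 and 1.78 against 1.83, 2.15 and 2.04) but not in TPM. The share of all pairs of tested genes with such a separation was not counted. In each of these 3 ratios the first gene was the richer in GC. *ELAVL1* has 46.3% and *ELAVL3* 58.1% GC, against 36.3% for *ELAVL2* and 36.9% for *ELAVL4*. The part of GC content in the ratios was not tested. Each of these 3 ratios had an exact two-sided permutation p of 0.10, the smallest possible, and 0.233 after Benjamini-Hochberg adjustment over the 7 ratios compared. For *ELAVL1* to *ELAVL2* and *ELAVL1* to *ELAVL4* the p of 0.10 was fixed by the orders of the single genes. The other 4 ratios overlapped between the groups: *ELAVL2* to *ELAVL4*, *ELAVL1* to *ELAVL3*, *ELAVL2* to *ELAVL3* and *CELF1* to *CELF2*, with exact permutation p-values of 0.80, 0.50, 0.40 and 0.30.

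**Figure D3:**
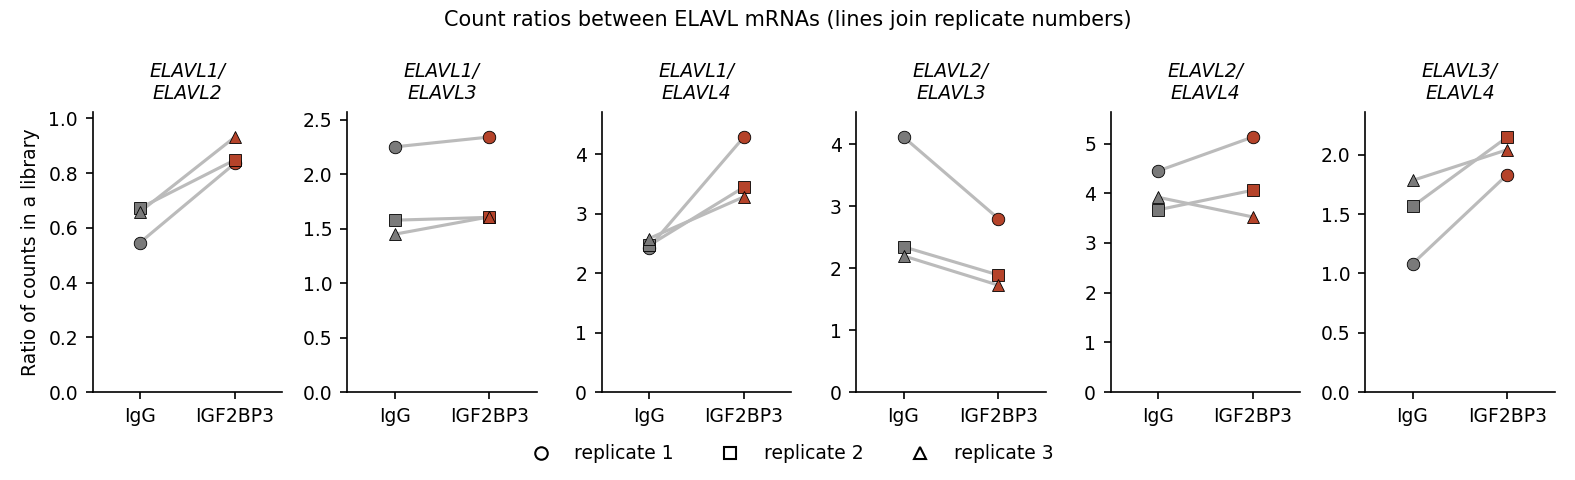
Ratios of counts between ELAVL messages within each library, 1 point per library, with lines joining IgG and IGF2BP3 libraries of the same replicate number. The *ELAVL1* to *ELAVL2* and *ELAVL1* to *ELAVL4* ratios were higher in all 3 IGF2BP3 libraries than in any IgG library, which follows from the orders of the single genes.

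Of the CELF messages, *CELF2* (ENSG00000048740.18, chr10:10798397-11336675, plus strand, 13 exons) was the one whose groups did not overlap. Its protein acts in alternative splicing in brain, heart and T cells. It had 75.0, 90.1 and 95.3 CPM with IgG and 97.9, 103 and 99.2 CPM with IGF2BP3. The 3 IGF2BP3 libraries lay close together, and IgG replicate 1 was the lowest of the 6. The log2 fold change was 0.20 (SE 0.10), with an adjusted p of 0.458 in edgeR and 0.042 with the block, and the differences within pairs were 0.38, 0.19 and 0.06. With both replicate 1 libraries left out the log2 fold change of *CELF2* was 0.13 (adjusted p = 0.279), and without IgG replicate 1 alone it was 0.11. With the length correction it was 0.07, with and without the block, at adjusted p-values of 0.506 and 0.721.

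*CELF1* (ENSG00000149187.18, chr11:47465933-47565569, minus strand, 15 exons), known for binding GU-rich elements and recruiting decay factors, was nearly the same in both groups. It had 219, 308 and 311 CPM with IgG and 236, 308 and 305 CPM with IGF2BP3. Replicate 1 was low in both groups, at 0.707 and 0.768 of the mean of the other libraries. A log2 fold change of 0.02 was fitted (SE 0.15, 95% interval -0.33 to 0.36), with an adjusted p of 0.978 in edgeR and 0.820 with the block. The 5′ end of *CELF1* overlaps *NDUFS3* and *PTPMT1* on the opposite strand by 234 and 140 bases, and whether reads were counted by strand is not given in the sources used here.

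*MSI2* (ENSG00000153944.12, chr17:57255851-57684689, plus strand, 14 exons), which sustains haematopoietic progenitors, had 168, 211 and 214 CPM with IgG and 154, 211 and 198 CPM with IGF2BP3. The groups overlapped, and the low library in each was again replicate 1. Its log2 fold change was -0.07 (SE 0.14, 95% interval -0.38 to 0.23), with an adjusted p of 0.872 in edgeR. Its paralog *MSI1* (ENSG00000135097.7, chr12:120341330-120369164, minus strand), a marker of neural progenitors, was barely present: 2, 1 and 0 counts with IgG and 3, 3 and 2 counts with IGF2BP3. The summed counts were 3 and 8, a ratio of 2.67 with an exact 95% interval from 0.640 to 15.6 that covers counting error only. A difference in *MSI1* was not detectable at this depth.

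*LIN28B* (ENSG00000187772.8, chr6:104936616-105083332, plus strand, 4 exons) was the main LIN28 message recovered in these libraries. It had 97.7, 95.9 and 103 CPM with IgG and 89.0, 91.5 and 87.8 CPM with IGF2BP3. The groups did not overlap, yet they differed by little, with means of 98.8 ± 3.61 and 89.4 ± 1.88 CPM (SD, n = 3). Its log2 fold change was -0.14 (SE 0.08, 95% interval -0.32 to 0.03), with an adjusted p of 0.478 in edgeR and 0.134 with the block. *LIN28B-AS1*, a non-coding gene on the opposite strand that overlaps its 5′ end, had 93 to 162 counts a library and a log2 fold change of -0.18 (adjusted p = 0.722). *LIN28A* (ENSG00000131914.11, chr1:26410817-26429728, plus strand) had 0 counts in 5 libraries and 3 counts in IGF2BP3 replicate 3, so no fold change is given.

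**Figure D4:**
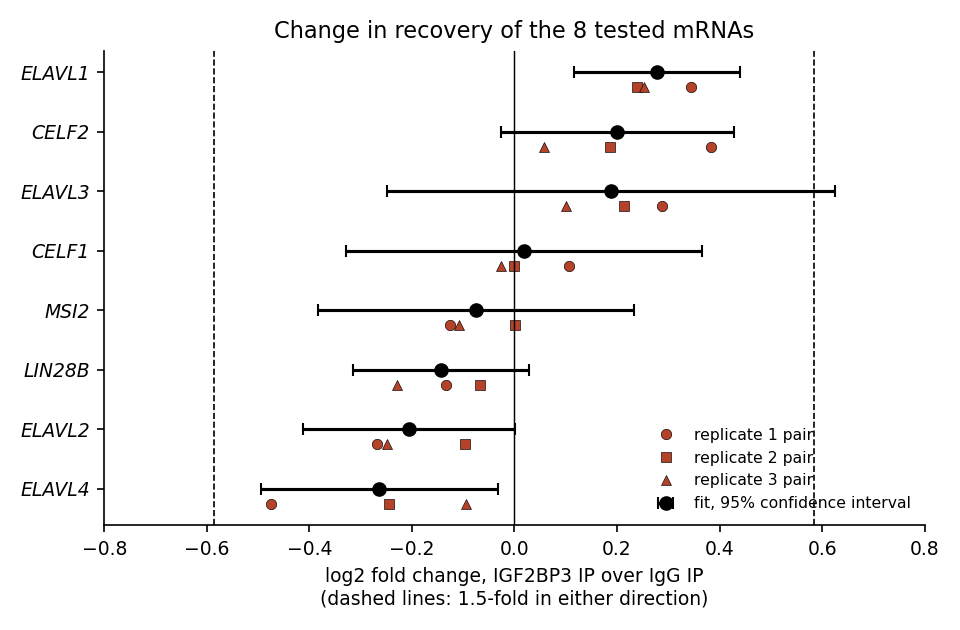
Log2 fold change of IGF2BP3 over IgG for the 8 tested genes (black, with 95% intervals from edgeR without the block) and the difference within each same-numbered pair (red). Dashed lines mark 1.5-fold in either direction; no estimate or pair passes them, and the interval of *ELAVL3* is the only one that crosses.

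Sequences are given for the let-7 loop, since *LIN28B* is both the gene that blocks let-7 and a let-7 target. The 9 mature human let-7 and miR-98 sequences in RefSeq (GRCh38.p14) share 1 seed, bases 2 to 8, shown in capitals for let-7a:
hsa-let-7a-5p: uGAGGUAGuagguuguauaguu
The letters pairing with this seed, CTACCTC, occurred 4 times in the 3′ UTR of *LIN28B*, once in those of *LIN28A* and *ELAVL1*, and in none of the other 7. At least 1 match was held by 9.75% of 19571 canonical 3′ UTRs. Among the 756 3′ UTRs within 10% of the length of the *LIN28B* 3′ UTR, 25.0% held at least 1 match and 0.265% held at least 4. The matches of the 2 tested genes are shown in capitals with their bases upstream (plus strand of GRCh38 for *LIN28B*, minus strand for *ELAVL1*):
*LIN28B* chr6:105078812-105078834: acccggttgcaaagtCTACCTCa
*LIN28B* chr6:105081239-105081261: tactgatgatagtaaCTACCTCt
*LIN28B* chr6:105081421-105081443: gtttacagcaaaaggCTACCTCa
*LIN28B* chr6:105082860-105082882: aaatgatggtgttgaCTACCTCt
*ELAVL1* chr19:7959856-7959878: ccatcttccccagacCTACCTCa
*LIN28B*, with 4 matches, had a log2 fold change of -0.14, and *ELAVL1*, with 1, had one of 0.28. The tested genes with no match ran from -0.26 (*ELAVL4*) to 0.20 (*CELF2*), and a relation to the matches was not tested.

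IGF2BP3 is known to bind CA-rich elements and, as a reader of methylated adenosine, GGAC. On the given strand of the canonical transcripts, the letters ACACA, overlapping matches included, occurred 3.58 times per kb in *ELAVL3*, above 97.0% of tested genes, against a median of 1.00 per kb. They occurred 1.81 times per kb in *CELF2*, 1.77 in *ELAVL4*, 1.76 in *ELAVL2*, 1.48 in *CELF1* and 1.16 in *ELAVL1*, and below the median in *MSI2* (0.941) and *LIN28B* (0.918). Of all tested transcripts 84.2% held ACACA and 98.0% held GGAC. Of the genes higher in the fit with the block, *ELAVL3* held more ACACA per kb than *ELAVL4* and *ELAVL2*, which were lower. *CELF2* held nearly the same as those and *ELAVL1* held less. Across the 8 genes the Spearman correlation of the log2 fold change with ACACA per kb was 0.14, and across all tested genes it was 0.03. With GGAC per kb it was 0.57 across the 8 genes and 0.30 across all tested genes. With GC content it was larger, 0.79 and 0.41, and GGAC was not tested apart from GC content. All of these values are descriptions, since genes share their libraries. The 30-base window with the most matches, in capitals, is shown for *ELAVL1*, *CELF2*, *ELAVL3* and *ELAVL4*, on the strand of the gene in GRCh38:
*ELAVL1* 3′ UTR chr19:7962679-7962708 minus: ccACACAttgcatgcacagcgccccACACA
*CELF2* 3′ UTR chr10:11333326-11333355 plus: aagggcctgtgccagaagaaaACACACACA
*ELAVL3* 3′ UTR chr19:11453677-11453706 minus: gggACACAcggacagacgcagacggACACA
*ELAVL4* 3′ UTR chr1:50201222-50201251 plus: gaacaaaACACAcgcgcgcACACACACACA
A match is a run of letters and not a measured binding site. The window with the most matches among these 4 was that of *ELAVL4*, with 5, a gene that was lower in the fit with the block.

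Base composition moved with the fold change. Across 14479 tested genes with a canonical transcript, the Spearman correlation of GC content with the log2 fold change was 0.41, and across the 8 genes it was 0.79, both given as descriptions since genes share their libraries. *ELAVL2* (36.3% GC), *ELAVL4* (36.9%) and *LIN28B* (38.0%), the genes whose IGF2BP3 libraries all lay lower, were the 3 poorest in GC, and the 2053 tested genes of 36 to 40% GC had a median log2 fold change of -0.11. *ELAVL3*, at 58.1% GC, was the richest, and genes of 56 to 60% had a median of 0.13. *ELAVL1* (46.3% GC) was higher than its composition class, where the median was -0.02 and the interquartile range was -0.13 to 0.12. *CELF2* (41.9% GC) likewise lay above its class (median -0.07, upper quartile 0.04). *ELAVL2* and *ELAVL4* lay under the lower quartile of theirs, -0.18, and *CELF1*, *MSI2*, *ELAVL3* and *LIN28B* lay inside the interquartile range of their classes.

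With a correction for GC content the log2 fold change of *ELAVL1* was 0.27 and that of *CELF2* 0.24. That of *ELAVL2* went from -0.21 to -0.09, that of *ELAVL4* from -0.26 to -0.16, that of *LIN28B* from -0.14 to -0.05 and that of *ELAVL3* from 0.19 to 0.02. In the fit with both the GC correction and the block, *ELAVL1* (adjusted p = 0.00040) and *CELF2* (adjusted p = 0.014) were higher in edgeR, against 7.51% of all tested genes, and none of the 8 was lower, against 4.33%. The adjusted p in that fit was 0.249 for *ELAVL2*, 0.097 for *ELAVL4* and 0.843 for *ELAVL3*.

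**Figure D5:**
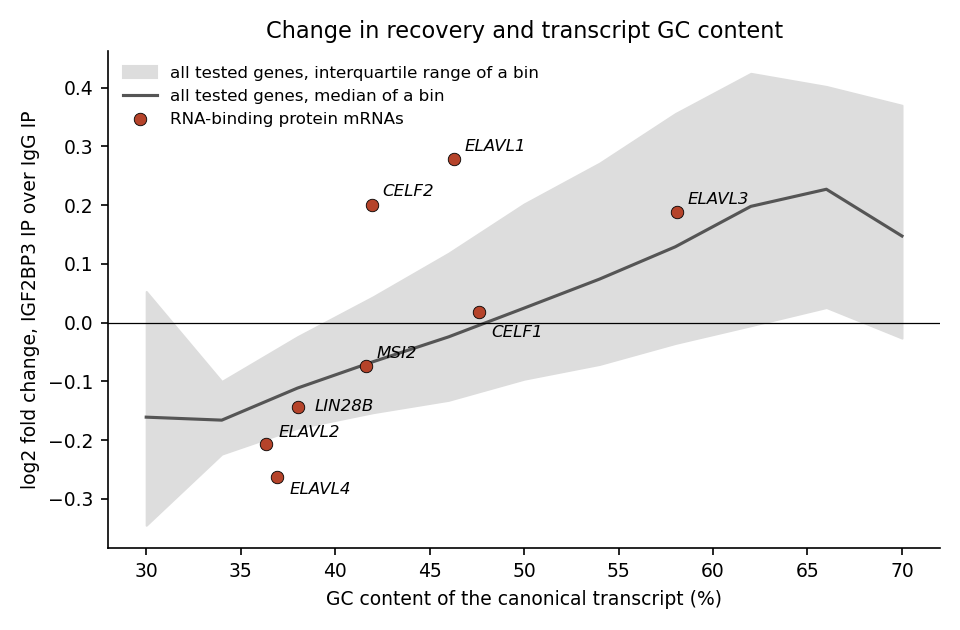
Log2 fold change of IGF2BP3 over IgG against GC content of the canonical transcript, for the 8 tested genes as points and for all tested genes as the median (line) and interquartile range (grey) of each 4-point class of GC content. *ELAVL1* and *CELF2* lie above the interquartile range of their classes and *ELAVL2* and *ELAVL4* below it.

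Other RNA-binding protein genes of related function were read from 4 lists of 42 genes in all, 40 of them tested. Of these 1 was enriched, none was lower, and their median log2 fold change was -0.02. The enriched gene was a CELF paralog, *CELF5*, at 12.1, 12.1 and 12.5 CPM with IgG and 18.1, 23.2 and 20.3 CPM with IGF2BP3. Its log2 fold change was 0.75 (SE 0.13), with an adjusted p of 0.037 in edgeR. It also belongs to a list the study drew from these same libraries, so the call is not independent of it. The adjusted p was 3.8e-05 with the block. Corrected for GC content, *CELF5* had a log2 fold change of 0.54 without the block (adjusted p = 0.171) and 0.55 with the block (adjusted p = 0.0020), short of 1.5-fold in both. Its adjusted p was 0.056 to 0.195 when any 1 library other than IGF2BP3 replicate 1 was left out, while the log2 fold change stayed at 0.64 to 0.77, in fits that called 0 to 134 genes enriched of all tested. Of the rest of that list *CELF3* was at 0.39 (adjusted p = 0.360), *CELF4* at -0.10, and *CELF6* had no counts.

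None of 7 other binders of AU-rich elements, which compete or act with ELAVL proteins, was enriched or lower without the block. With it *ZFP36L1*, which speeds decay of such messages, was enriched at a log2 fold change of 1.00 (adjusted p = 0.044, against 0.344 without it), from 5 to 39 counts a library. Its differences within pairs 1 to 3 were 1.63, 1.04 and 0.56. *KHSRP*, which also promotes decay of messages with AU-rich elements, was at 0.36 on the log2 scale, with an adjusted p of 0.311 in edgeR and 0.00016 with the block. With the GC correction *KHSRP* was at 0.17 (adjusted p = 0.737), and at 0.18 with the block added (adjusted p = 0.045). Of the 8 tested genes that process or uridylate let-7, *XPO5*, the exporter of pre-microRNAs, was higher at any size, with 0.50 (SE 0.09, adjusted p = 0.039), short of 1.5-fold. Among 22 other sequence-specific regulators of splicing and translation, *PTBP1*, the splicing repressor of neuronal exons, was higher at 0.51 (SE 0.09, adjusted p = 0.034), also short of 1.5-fold. With the block the adjusted p was 1.5e-05 for *XPO5* and 2.6e-07 for *PTBP1*. Without any 1 library of replicates 2 or 3 the adjusted p of both was 0.129 to 0.221, at log2 fold changes of 0.46 to 0.56, and without IgG replicate 1 that of *XPO5* was 0.059. With the GC correction *XPO5* was at 0.458 (adjusted p = 0.059) and *PTBP1* at 0.345 (adjusted p = 0.161). With the block added to that correction they were at 0.457 (adjusted p = 3.6e-05) and 0.344 (adjusted p = 5.0e-05). *NOVA2*, a neuronal splicing factor of the list that holds *PTBP1*, was enriched with the block, at 0.99 (adjusted p = 0.038, against 0.336 without it). It had 5 to 36 counts a library, and the differences within pairs 1 to 3 were 1.93, 0.69 and 0.77. Neither *ZFP36L1* nor *NOVA2* was enriched with the block in DESeq2, where 321 of all genes were. Nor was either with the block and GC correction in edgeR, where 270 were.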

How the data were processed

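RNA immunoprecipitation libraries of WaGa cells (IgG or IGF2BP3 antibody, 3 each, 150 bp paired-end reads) were analysed from tables of counts, TPM and FPKM per gene. Per the labels and the study's methods, the authors aligned reads with STAR 2.7.9a to GRCh38 with GENCODE 37 and used RSEM for the deposited TPM and FPKM values. The deposited counts are whole numbers, and the program and strand setting behind them are not given in the sources used here. Counts set the precision of each value, and intervals on summed counts cover counting error only.

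Genes were filtered by filterByExpr, scaled by TMM and tested on condition alone with edgeR 4.0.16 (R 4.3.3), with Benjamini-Hochberg adjustment over 14507 genes. TPM values served for levels between genes, and FPKM values for implied lengths. GC content, motifs and positions came from GENCODE 44 canonical transcripts (60481 of 60655 gene identifiers matched). The corrections for GC content and length entered a loess trend (span 0.5), fitted per library, as an offset. The tests were tested on simulated data.

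The members and lists were chosen with earlier results of these data known. Genes named outside the members were, by rule, the called genes of each list or else its gene of smallest p, the 3 genes most like the member of smallest p, and genes overlapping a member. Overlapping genes with under 10 counts in most libraries were left out except the one sharing a strand and 14807 bases with *ELAVL3*, and the rest of the CELF list and the genes enriched with the block were named, after their values were seen. The design text calls the replicates independent but does not say whether same-numbered libraries share a lysate, so p-values measure the spread between these libraries. The deviations of same-numbered libraries from their group means correlated at 0.54, 0.26 and 0.22 for numbers 1 to 3, all above 0.1, so a fit with the number as a block was read as paired, although replicates 2 and 3 correlated as much crosswise (0.25 and 0.26). Alternatives were DESeq2 1.42.0, limma 3.58.1 (voom, and TPM with pseudocounts of 1 and 0.1), other scaling, filters, the block, GC and length corrections, and leaving out libraries. Leaving out both replicate 1 libraries was chosen after seeing the data.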

Additional observations from a re-analysis of the deposited data

How the results depend on the processing

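No member was enriched or lower under any of the 22 alternatives. Over all genes these fits called 0 to 517 enriched and 0 to 35 lower. Both TPM fits and the fit without IGF2BP3 replicate 2 called no gene enriched, so the members are not set apart there. With the replicate block the count of enriched genes in the other 4 lists went from 1 to 3, and that over all tested genes from 169 to 517. It was 0 with either TPM pseudocount, where 0 of all tested genes were enriched. With the GC correction it was 0, against 81 over all tested genes without the block and 270 with it. With the length correction and block it was 2, against 391. It ran from 0 to 2 without 1 library, against 0 to 244. The median log2 fold change of the 8 members, -0.03, was 0.0098 with library totals only, 0.086 on log2(TPM + 1), 0.087 on log2(TPM + 0.1), and -0.14 with the length correction, with and without the block. It ran from -0.13 to 0.091 without 1 library. The median over all genes, -0.01, was 0.034 with library totals only, 0.11 and 0.13 on TPM, and -0.054 with the length correction, with and without the block. It ran from -0.021 to 0.0056 without 1 library. *ELAVL2* was 0.041 and *MSI2* 0.10 with either TPM pseudocount. *MSI2* was 0.049 without IGF2BP3 replicate 1, in a range of -0.18 to 0.049 without 1 library. *CELF1* was -0.0049 with the GC correction, -0.10 with the length correction, with and without the block, and -0.011 without both replicate 1 libraries, and ran from -0.13 to 0.13 without 1 library. The cause of these shifts was not tested.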

Other observations

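The genes whose CPM values ran most like those of *ELAVL1* over the 6 libraries were *EEF2*, a translation elongation factor (Pearson r = 0.999, log2 fold change 0.37, adjusted p = 0.055), *MXD4*, a repressor of the MYC network (r = 0.998, 0.64, adjusted p = 0.039), and *IPO9*, a nuclear import receptor (r = 0.997, 0.25, adjusted p = 0.202). In all 232 genes had an r over 0.95, and the libraries' group is part of what these genes share.

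Of 12 let-7 and miR-98 hairpin genes in the count table, 10 had 0 counts in every library, *MIRLET7I* had 15 counts over the 6 libraries and *MIR98* had 9. The libraries were read at 150 bp paired-end, and these counts are not a measure of mature let-7 levels. The let-7 host transcripts *MIRLET7A1HG* and *MIRLET7BHG* had log2 fold changes of -0.27 and -0.36 (adjusted p = 0.619 and 0.576).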
